A study of Mus musculus with 6 samples.

Results

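The major histocompatibility complex (MHC) class I and peptide loading genes described here are H2-K1, H2-D1, H2-T23, B2m, Tap1, Tap2, Tapbp, Psmb8, Psmb9 and Nlrc5. The rule takes them by gene symbol and uses no measured value, and each symbol matched 1 gene, which gives 10 of the 55487 genes measured. MHC class I molecules carry peptides of cytosolic proteins to the cell surface, where CD8 T cells and natural killer cells read them. Proteasomes cut the peptides, the TAP transporter moves them into the endoplasmic reticulum, and tapasin holds the transporter next to empty heavy chains until a peptide binds. Endothelial cells hold class I molecules at rest, and interferon raises the transcription of most genes of this route.

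RNA was sequenced from kidney endothelial cells of 6 mice, each 1 library, with 3 mice a group. The 3 I-PpoI mice carried Cre recombinase driven by the VE-cadherin promoter and a Cre-dependent allele of I-PpoI, a homing endonuclease that cuts DNA. The labels name that allele ROSA26-STOP-I-PpoI in mouse 1, ROSA27-STOP-I-PpoI in mouse 2 and ROSA28-STOP-I-PpoI in mouse 3. The 3 control mice were wild-type littermates, so no control carried Cre alone. From 8 weeks of age all 6 mice were fed for 4 weeks on a high-fat diet, in which fat gave 60% of the energy. Whole kidneys were digested with collagenase and endothelial cells were taken with magnetic beads against CD31, so cells of other types can be carried along. In such bulk samples, fewer cells of a type and less RNA per cell cannot be told apart.

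The deposited values are FPKM, the fragments counted for a gene divided by its exon length and by the fragments of the library. Multiplying FPKM by exon length gave back whole fragments, and by that measure the libraries of I-PpoI mice 1 and 2 stand apart. They held 1590955 and 834136 fragments, where I-PpoI mouse 3 held 13324300 and control libraries 14081219 to 16954469. Antisense gene models took 14.7% of the fragments of I-PpoI mouse 1 (95% exact binomial interval 14.66 to 14.77%, which covers counting error only) and 10.02% of those of I-PpoI mouse 2 (9.95 to 10.08%), against 0.119 to 0.225% in the other 4 libraries. Genes on the minus strand took 68.2% and 70.6% of the mitochondrial fragments of these 2 libraries, against at most 0.0821% in the others. I-PpoI mouse 3 had the highest share of mitochondrial fragments, 48.2%, against 8.83 to 18.3% in the controls, and its Lrp2, a proximal tubule receptor, was at 66.5 FPKM against 2.33 to 3.65 FPKM in the controls. Counting by strand is not stated, and whether the libraries of I-PpoI mice 1 and 2 were counted on the other strand from the rest was not tested, so each of their values is uncertain, those of H2-K1 and H2-D1 included. The Y-linked Ddx3y had 2.40, 0 and 0 FPKM across the 3 I-PpoI libraries and 13.1 to 19.0 FPKM in controls, and Xist, expressed from an inactive X, had 0, 4.66 and 19.8 FPKM across the 3 I-PpoI libraries and at most 0.0138 FPKM in controls. I-PpoI mouse 1 shared the controls' pattern of Xist at 0 with Ddx3y present, and for I-PpoI mice 2 and 3 sex and genotype cannot be told apart. The 10 genes together held 4684, 1744 and 41905 fragments in I-PpoI mice 1, 2 and 3, against 80620 to 100528 in the controls.

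FPKM of the genes tested was lower as a whole in the I-PpoI group, with a median log2 fold change of -0.65 as deposited. Values are therefore given as deposited, and fold changes come from FPKM scaled by each library's median ratio to the other libraries, where that median was 0.02. The test was limma on log2(scaled FPKM + 1) over the 14962 genes that averaged 1 FPKM or more, with p adjusted by Benjamini-Hochberg and called under 0.05. All 10 class I genes passed this filter. Each fold change is I-PpoI over control, and that of each class I gene is given again with I-PpoI mouse 3 as the only I-PpoI library.

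Across the class I genes, none passed the threshold, and neither did any of the 14962 genes (0%). At an unadjusted limma p under 0.05, 873 of all genes were higher (5.83%) and 500 lower (3.34%) in I-PpoI libraries, and none of the 10 class I genes was among them. Limma-voom on the recovered fragments also called 0 genes, with 379 higher and 154 lower at the unadjusted p. The fitted fold change was below 0 for 9 of 10 class I genes and above 0 for Psmb9, with a median of -0.33, beside 7361 of all 14962 genes below 0. It was below 0 for 5 of 10 when the scaling used genes with no opposite-strand neighbour, beside 5394 of all genes. That scaling put the median of all genes at 0.27 and that of the class I genes at -0.05, and turned H2-K1, H2-D1, H2-T23 and Tap2 above 0, at 0.23, 0.28, 0.03 and 0.01. As deposited, 8 of 10 had every I-PpoI library below every control, where 45.1% of all genes did. Also as deposited, 8 of 10 were lower at an unadjusted p under 0.05, beside 32.5% of all genes. After scaling, only Tapbp of the 10 still had every I-PpoI library below every control, beside 9.76% of all genes, and none had every I-PpoI library above, beside 7.65%. With the other scaling genes all 10 overlapped, Tapbp included. The share of all genes that overlapped was not counted with that scaling, so this count has no background beside it.

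**Figure D1:**
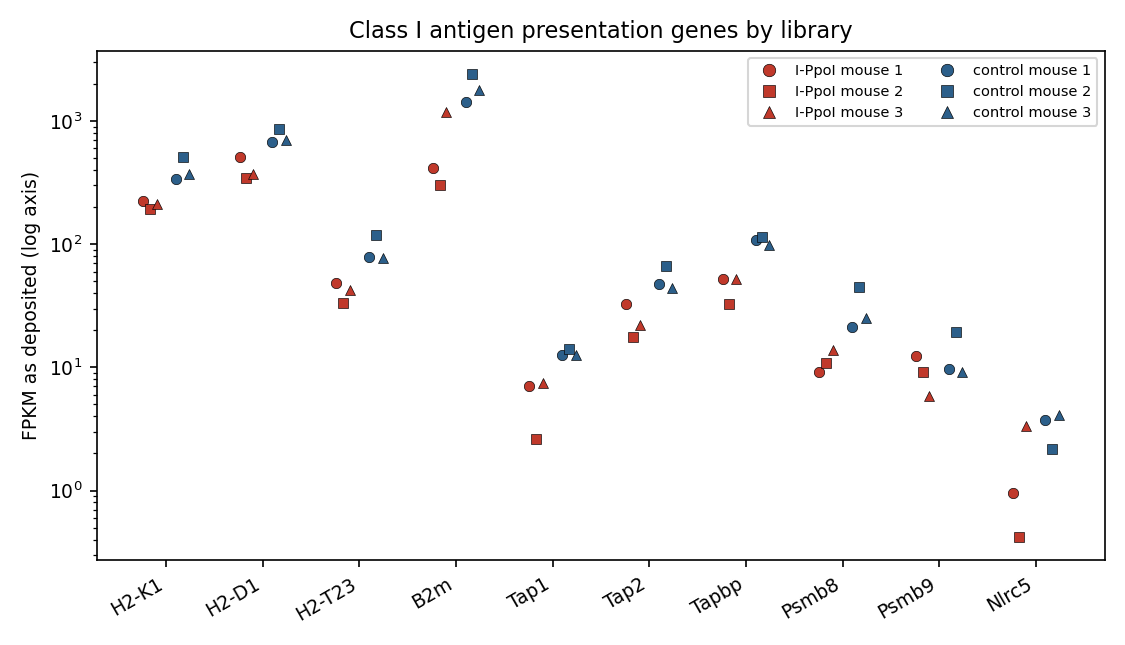
FPKM as deposited (log axis) of the 10 class I genes in each library, I-PpoI mice in red and control mice in blue. B2m, H2-D1 and H2-K1 stand highest and Nlrc5 lowest, and the red points lie below all blue points for every gene but Psmb9 and Nlrc5.

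H2-K1 and H2-D1 encode the classical class I heavy chains, the polymorphic chains that hold the peptide. In the deposited annotation (GRCm38), H2-K1 lies at chr17:33996017-34000347 on the minus strand with 8 exons, and H2-D1 at chr17:35262730-35267499 on the plus strand with 8 exons. They are the only 2 of the 10 without an opposite-strand gene nearer than 5 kb. Of the 100-base stretches of their longest coding transcripts, 0% of those of H2-K1 and 4.64% of those of H2-D1 also occur in transcripts of other genes. These are exact matches, and how far reads were assigned to a wrong gene was not measured, so both counts are uncertain to an unknown extent.

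H2-K1 had 224, 193 and 213 FPKM in I-PpoI mice 1, 2 and 3, against 336, 514 and 375 FPKM in control mice 1, 2 and 3. All 3 I-PpoI values lay below all controls as deposited. After scaling the groups overlapped, at 256 to 328 scaled FPKM in I-PpoI libraries and 232 to 386 in controls. The log2 fold change was -0.08 (SE 0.30, 95% interval -0.82 to 0.66, limma adjusted p = 0.876), and -0.18 with I-PpoI mouse 3 alone.

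H2-D1 was the more abundant of the pair in every library, with 515, 342 and 372 FPKM in I-PpoI mice, against 683, 862 and 697 FPKM in control mice. Scaling again brought the groups together, with a log2 fold change of -0.03 (SE 0.30, 95% interval -0.76 to 0.70, limma adjusted p = 0.957). Scaled H2-D1 in I-PpoI mouse 3 lay below all controls, at a log2 fold change of -0.27. The log2 ratio of H2-K1 to H2-D1, which no scaling of a library can move, was -1.20, -0.82 and -0.80 in I-PpoI mice and -1.02, -0.75 and -0.90 in controls. The group difference was -0.06 (exact two-sided permutation p = 0.8, n = 3 each, where 0.1 is the smallest p possible).

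H2-T23 encodes the heavy chain of Qa-1, a non-classical class I molecule that presents leader peptides of other class I chains to natural killer receptors. It lies at chr17:36029773-36032855 on the minus strand with 7 exons, and 7.28% of its 100-base stretches occur in other genes' transcripts. It had 48.1, 33.0 and 42.7 FPKM in I-PpoI mice, against 78.6, 119 and 76.9 FPKM in controls. The scaled groups overlapped, with a log2 fold change of -0.28 (SE 0.27, 95% interval -0.93 to 0.38, limma adjusted p = 0.544) and -0.34 in I-PpoI mouse 3 alone, which lay below all controls. The antisense model A930015D03Rik spans H2-T23 without sharing exon bases, and it held 90 and 34 fragments in I-PpoI mice 1 and 2, with 5 for I-PpoI mouse 3 and 8 to 20 for controls.

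B2m encodes beta-2 microglobulin, the invariant light chain that every classical heavy chain needs to reach the surface. The gene lies at chr2:122147686-122153083 on the plus strand with 4 exons, outside the MHC, while 8 of the 10 genes lie on chromosome 17. B2m ranked 9th in FPKM among all 55487 genes in each control library. In I-PpoI mice 1, 2 and 3 it ranked 170th, 174th and 18th.

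B2m had 419, 304 and 1193 FPKM in I-PpoI mice, against 1439, 2417 and 1803 FPKM in controls. The first 2 I-PpoI values rest on 578 and 219 fragments, the third on 13676 and the controls on 20002 to 29254. The low values were those of I-PpoI mice 1 and 2, and I-PpoI mouse 3 fell among the controls once scaled, at 1435 scaled FPKM against 991 to 1815. B2m had the lowest fitted fold change of the 10 genes, with a log2 fold change of -0.94 (SE 0.54, 95% interval -2.27 to 0.40, limma adjusted p = 0.363), and -0.62 with the other scaling genes. With I-PpoI mouse 3 alone it was 0.10 (95% interval -2.80 to 3.01). Without I-PpoI mouse 3, B2m was the 1 class I gene past the threshold, at -1.46 (SE 0.41, limma adjusted p = 0.0387), in a fit that rests on the 2 libraries that stand apart and that called 5665 genes in all.

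The promoters of the heavy chains and B2m are shown because these genes are known to share binding sites for one assembly of transcription factors. RefSeq (GRCm38.p6) promoters, 250 bases before to 50 after a gene's start, were at hand for 8 of the 10 genes, all but Tap2 and Nlrc5. Capitals mark 4 motifs searched on both strands. They are the interferon regulatory factor core (GAAA, any 2 bases, then GAAA), the kappa B site GGGNNTTCC, the core TGACG of the cyclic AMP response element, and ATTGG, the inverted CCAAT box that NF-Y binds. Matches on the other strand read CGTCA and CCAAT. The windows are chr17:34000298-34000597 (minus strand) for H2-K1, chr17:35262844-35263143 (plus) for H2-D1 and chr2:122147437-122147736 (plus) for B2m, written 5′ to 3′ on the gene's strand.
H2-K1: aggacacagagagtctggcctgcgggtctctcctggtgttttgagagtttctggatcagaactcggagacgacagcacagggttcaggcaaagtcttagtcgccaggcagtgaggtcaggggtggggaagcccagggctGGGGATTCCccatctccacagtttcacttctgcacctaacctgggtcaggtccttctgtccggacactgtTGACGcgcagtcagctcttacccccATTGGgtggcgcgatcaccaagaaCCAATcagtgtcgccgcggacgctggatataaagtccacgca
H2-D1: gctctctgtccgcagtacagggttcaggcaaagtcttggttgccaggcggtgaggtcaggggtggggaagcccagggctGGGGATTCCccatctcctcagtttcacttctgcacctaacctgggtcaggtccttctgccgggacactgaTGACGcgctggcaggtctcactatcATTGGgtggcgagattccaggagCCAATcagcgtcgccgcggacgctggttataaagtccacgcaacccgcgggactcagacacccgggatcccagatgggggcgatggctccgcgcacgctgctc
B2m: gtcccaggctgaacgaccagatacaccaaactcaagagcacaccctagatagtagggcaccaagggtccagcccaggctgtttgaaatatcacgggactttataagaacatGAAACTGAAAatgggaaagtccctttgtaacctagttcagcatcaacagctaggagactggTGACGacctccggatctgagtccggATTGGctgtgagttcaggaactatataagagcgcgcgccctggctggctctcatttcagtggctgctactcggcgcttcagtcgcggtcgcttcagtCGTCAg

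The kappa B letters were in the promoters of H2-K1 and H2-D1, both as GGGGATTCC, and in 5.82% of all 32851 promoters. The interferon regulatory factor core was in the promoters of B2m, as GAAACTGAAA, and H2-T23, and in 3.44% of all promoters. TGACG was in 5 of the 8 promoters and 20.8% of all, and ATTGG in 7 of the 8 and 37.4% of all. In H2-K1, H2-D1 and B2m alike, ATTGG began 25 bases downstream of the start of TGACG. That spacing was noticed after the matches were seen, and it was in 31 of the 32851 promoters (0.0944%), including that of H2-M3, a non-classical heavy chain. Only these exact letters were searched, so a promoter without a match can still hold a near match. Letters in a window describe the sequence and show no binding.

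Tap1 and Tap2 encode the paired subunits of the TAP peptide transporter. Tap1 lies at chr17:34187553-34197225 on the plus strand with 11 exons and Tap2 at chr17:34203527-34216321 on the plus strand with 12 exons, with Psmb8 between them. The start of Tap1 faces that of Psmb9 on the other strand, and the genes overlap by 212 bases. Their RefSeq promoter windows share 275 bases, so the window of Tap1, chr17:34187306-34187605 (plus strand), is shown for both.
Tap1: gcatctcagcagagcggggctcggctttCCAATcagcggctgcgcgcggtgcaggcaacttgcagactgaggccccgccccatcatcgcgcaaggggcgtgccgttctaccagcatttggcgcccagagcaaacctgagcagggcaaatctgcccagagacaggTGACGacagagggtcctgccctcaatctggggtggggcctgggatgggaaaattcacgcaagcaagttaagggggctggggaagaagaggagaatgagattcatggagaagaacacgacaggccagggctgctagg
Read on the plus strand this window holds TGACG and CCAAT, the same letters as ATTGG on the other strand, and neither the kappa B letters nor the interferon regulatory factor core.

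Tap1 had 7.06, 2.62 and 7.51 FPKM in I-PpoI mice, against 12.5, 14.2 and 12.7 FPKM in controls. The value of I-PpoI mouse 2 rests on 12 fragments. The log2 fold change was -0.43 (SE 0.31, 95% interval -1.19 to 0.34, limma adjusted p = 0.450), and with I-PpoI mouse 3 alone it was -0.07 (95% interval -0.60 to 0.46), with that mouse inside the control range after scaling.

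Tap2 was higher than Tap1 in every library, with 32.5, 17.7 and 22.03 FPKM in I-PpoI mice, against 47.2, 66.9 and 44.4 FPKM in controls. The scaled groups overlapped, with a log2 fold change of -0.30 (SE 0.28, 95% interval -0.97 to 0.38, limma adjusted p = 0.531). I-PpoI mouse 3 alone lay below all controls, at -0.50 (95% interval -1.47 to 0.48). The log2 ratio of Tap1 to Tap2 was -2.20, -2.76 and -1.55 in I-PpoI mice and -1.91, -2.24 and -1.80 in controls, so I-PpoI mouse 3 lay above and I-PpoI mouse 2 below all controls. The group difference was -0.19 (exact two-sided permutation p = 0.7, n = 3 each).

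Tapbp encodes tapasin, which bridges TAP and the heavy chain and edits the bound peptide. It lies at chr17:33915899-33929292 on the plus strand with 8 exons, and 14.04% of its 100-base stretches occur in other genes' transcripts. Tapbp had 51.9, 32.6 and 51.8 FPKM in I-PpoI mice, against 107, 115 and 98.8 FPKM in controls. It was the gene of the 10 whose groups stayed apart after scaling, at 60.3, 55.3 and 62.3 scaled FPKM in I-PpoI mice and 73.9, 86.5 and 76.9 in controls. With factors from genes with no opposite-strand neighbour they overlapped, at 73.6, 68.7 and 55.7 in I-PpoI mice and 66.6, 76.8 and 68.3 in controls, a log2 fold change of -0.10. Under the main scaling it was -0.41 (SE 0.21, 95% interval -0.92 to 0.10, limma adjusted p = 0.326), and -0.31 (95% interval -0.81 to 0.19) with I-PpoI mouse 3 alone, so the difference missed the threshold with and without the libraries that stand apart.

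The noncoding models opposite Tapbp, Tap2 and Psmb8 were high in the libraries that stand apart, while Patl2, the coding gene opposite B2m, was at no more than 0.512 FPKM in any library. Gm19412, which overlaps 904 exon bases of Tapbp, reached 648 and 363 FPKM in I-PpoI mice 1 and 2, while I-PpoI mouse 3 had 3.89 FPKM and controls had 6.23 to 8.68 FPKM. Gm15821, which overlaps 533 exon bases of Tap2, reached 586 and 258 FPKM in I-PpoI mice 1 and 2, while I-PpoI mouse 3 had 2.54 FPKM and controls had 5.12 to 8.52 FPKM. Gm20496, which overlaps 498 exon bases of Psmb8 and 165 of Tap2, was at 765 and 580 FPKM in the same 2 libraries, against 4.87 FPKM in I-PpoI mouse 3 and 7.21 to 9.75 FPKM in controls. In I-PpoI mice 1 and 2 these models stood above the protein-coding gene they overlap, and in the other 4 libraries below it. Their part in the class I values of I-PpoI mice 1 and 2 was not tested.

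**Figure D2:**
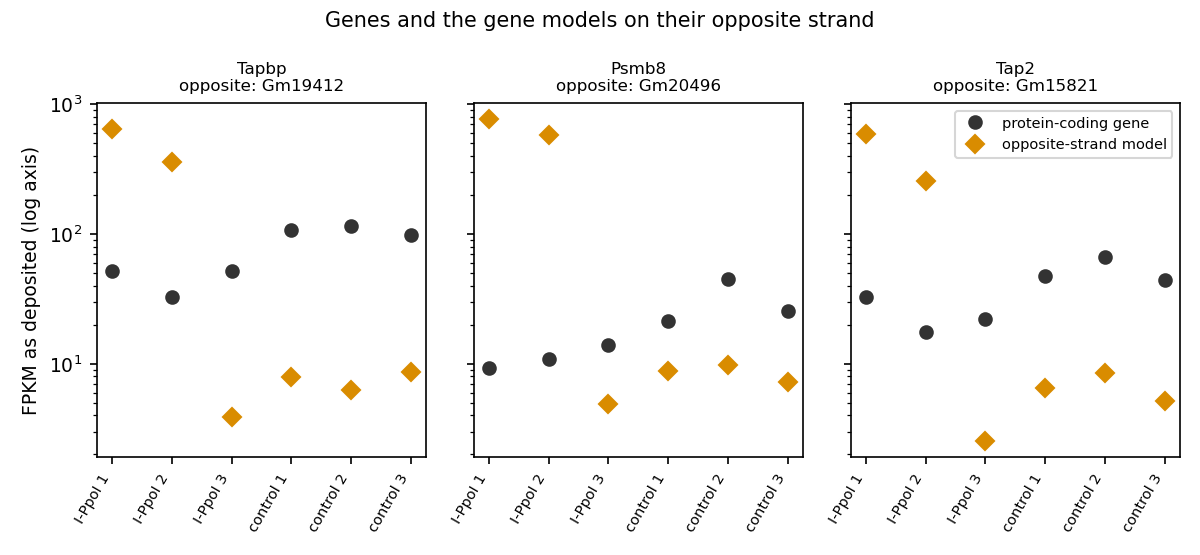
FPKM as deposited (log axis) of Tapbp, Psmb8 and Tap2 (dark circles) and of the gene models on their opposite strand (orange diamonds) in each library. The diamonds lie above the circles in I-PpoI mice 1 and 2, with Gm19412 at 648 and 363 FPKM, and below them in I-PpoI mouse 3 and the 3 controls.

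Psmb8 and Psmb9 encode catalytic subunits of the immunoproteasome, which replace Psmb5 and Psmb6 of the constitutive proteasome. Psmb8 lies at chr17:34197721-34201454 on the plus strand and Psmb9 at chr17:34181987-34187764 on the minus strand, each with 6 exons. Psmb8 had 9.22, 10.9 and 13.9 FPKM in I-PpoI mice, against 21.2, 44.9 and 25.4 FPKM in controls. Control mouse 2 stood well above the rest, and after scaling the groups overlapped. The log2 fold change was -0.49 (SE 0.39, 95% interval -1.43 to 0.46, limma adjusted p = 0.482), and -0.31 with I-PpoI mouse 3 alone.

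Psmb9 was the only gene of the 10 with a fitted fold change above 0 under the main scaling, and it turned round with the choice of libraries and scaling. It had 12.4, 9.13 and 5.86 FPKM in I-PpoI mice, against 9.64, 19.2 and 9.16 FPKM in controls. I-PpoI mouse 1 lay between the controls, and I-PpoI mice 2 and 3 lay below them. The log2 fold change was 0.37 after scaling (SE 0.43, 95% interval -0.69 to 1.42, limma adjusted p = 0.616), -0.41 as deposited and -0.27 with I-PpoI mouse 3 alone. Of its 100-base stretches, 9.02% occur in Tap1, on the opposite strand.

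The log2 ratio of each immunoproteasome subunit to the one it replaces was set between groups. Psmb8 to Psmb5 was -1.52, -0.54 and -1.04 in I-PpoI mice and -1.06, -1.19 and -0.79 in controls, a difference of -0.02 (exact permutation p = 1, n = 3 each). Psmb9 to Psmb6 was -0.33, 0.52 and -2.09 in I-PpoI mice and -1.97, -2.01 and -1.92 in controls. The 3 controls lay close together, I-PpoI mice 1 and 2 far above them and I-PpoI mouse 3 just below, and the difference of 1.34 had an exact permutation p of 0.4 (n = 3 each). In I-PpoI mice 1 and 2 these ratios rest on few fragments. Psmb9 had 73 and 28, Psmb6 had 47 and 10 and Psmb5 had 38 and 12. Psmb6 had 1103 to 2041 fragments in controls.

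For the third pair, Psmb10 to Psmb7 was 3.08, 1.33 and 1.13 in I-PpoI mice and 1.17, 1.67 and 1.23 in controls. I-PpoI mouse 1 lay far above the controls and I-PpoI mouse 3 just below them, and the difference of 0.49 had an exact permutation p of 0.7 (n = 3 each). The ratio of I-PpoI mouse 1 rests on 97 fragments of Psmb10 and 23 of Psmb7. Over the 5 ratios compared, with those of the heavy chains and of TAP, every Benjamini-Hochberg adjusted exact p was 1. I-PpoI mouse 3 minus the control mean was -0.03 for Psmb8 to Psmb5, -0.12 for Psmb9 to Psmb6 and -0.22 for Psmb10 to Psmb7.

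**Figure D3:**
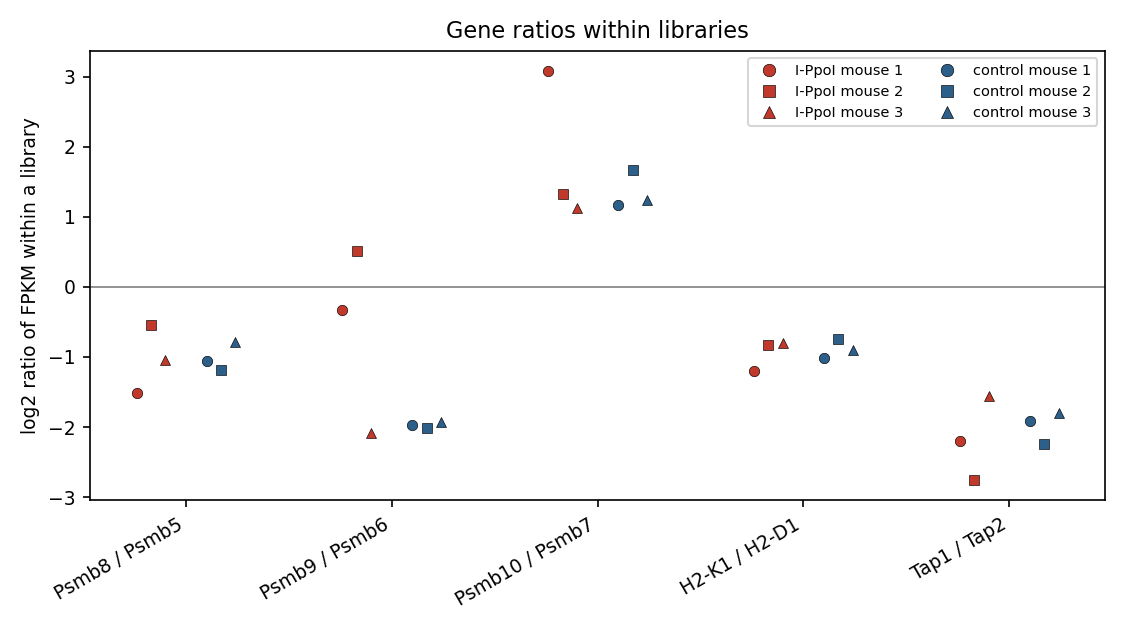
Log2 ratio of FPKM of 5 gene pairs within each library, I-PpoI mice in red and control mice in blue, with circles for mouse 1, squares for mouse 2 and triangles for mouse 3. The points of the groups overlap for all 5 pairs, and I-PpoI mice 1 and 2 stand above the controls for Psmb9 to Psmb6, at -0.33 and 0.52. Psmb6 rests on 47 and 10 fragments in these 2 libraries.

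Nlrc5 encodes the transactivator that drives transcription of class I genes and of B2m, Tap1 and Psmb9. It lies at chr8:94434356-94527272 on the plus strand with 53 exons. It had 0.954, 0.422 and 3.37 FPKM in I-PpoI mice, against 3.71, 2.18 and 4.07 FPKM in controls. The first 2 I-PpoI values rest on 13 and 3 fragments, that of I-PpoI mouse 3 on 381 and the controls on 261 to 586. I-PpoI mice 1 and 2 lay below the controls and I-PpoI mouse 3 among them. The log2 fold change was -0.37 (SE 0.49, 95% interval -1.57 to 0.84, limma adjusted p = 0.663). With I-PpoI mouse 3 alone it was 0.62 (95% interval -0.49 to 1.72), with that mouse above every control after scaling.

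**Figure D4:**
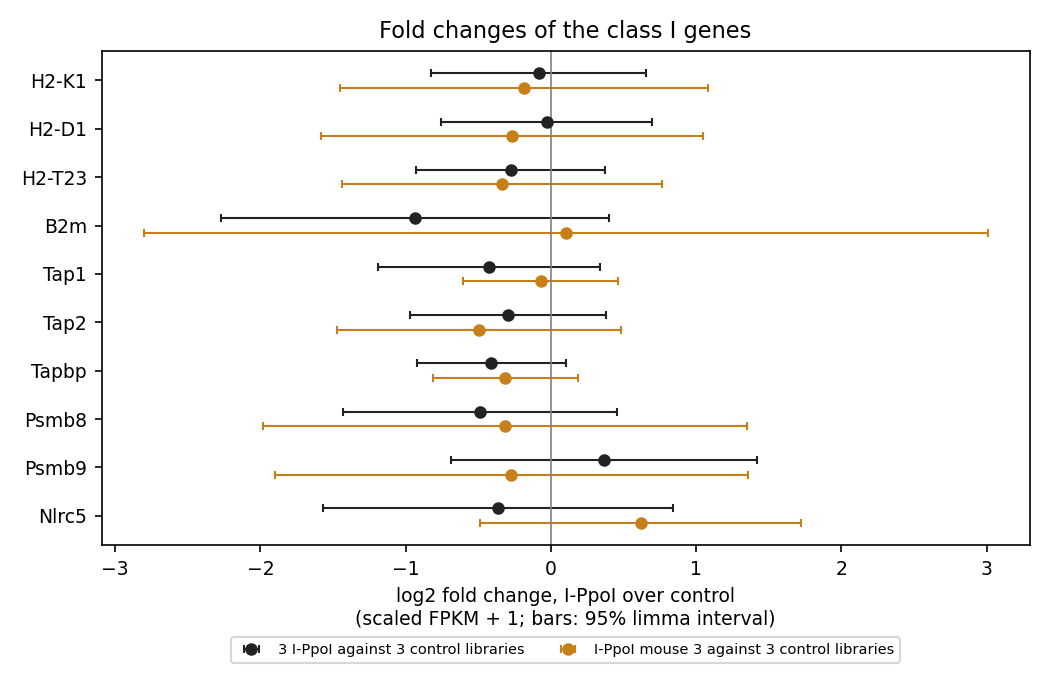
Log2 fold change of each class I gene, I-PpoI over control, on scaled FPKM + 1 with 95% limma intervals, for all 6 libraries (black) and with I-PpoI mouse 3 as the only I-PpoI library (orange). Every interval holds 0, and B2m, Psmb9 and Nlrc5 lie on opposite sides of 0 in the 2 fits.

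With I-PpoI mouse 3 as the only I-PpoI library, 50 of the 14962 genes passed the threshold (0.334%), and none of the class I genes did. Their smallest limma adjusted p was 0.840, with that lone sample assumed to vary like the controls. In FPKM scaled over that library and the controls, I-PpoI mouse 3 lay below every control for H2-D1, H2-T23, Tap2 and Tapbp, 4 of 10, beside 23.9% of all genes. On the same scale it lay above every control for Nlrc5, 1 of 10, beside 23.8% of all genes, and within their range for the other 5. The median log2 fold change of the 10 was -0.27 and that of all genes -0.00.

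The order of the genes by FPKM, which is per length, ran in controls from B2m through H2-D1, H2-K1, Tapbp, H2-T23, Tap2, Psmb8, Tap1 and Psmb9 to Nlrc5. Mean FPKM was 639 ± 484 in I-PpoI mice and 1886 ± 494 in controls for B2m, and 1.58 ± 1.57 in I-PpoI mice and 3.32 ± 1.00 in controls for Nlrc5 (SD, n = 3 each). In controls the ranges of Tapbp and H2-T23, of Tap2 and Psmb8, and of Tap1 and Psmb9 overlapped, and those of the other neighbours did not. In I-PpoI mice B2m exceeded H2-D1 in 1 of 3 libraries, against 3 of 3 controls. Control mouse 2 was the highest control for 9 of the 10 genes after scaling, all but Nlrc5, beside 40.2% of all genes.

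The rest of the antigen presentation route was described by 6 lists of 60 genes, of which 55 passed the filter. None passed the threshold with limma or limma-voom, and 3 of the 55 were lower at an unadjusted limma p under 0.05, beside 3.34% of all genes. After scaling 7 of the 55 had a fold change above 0 and 48 below, with a median of -0.51. Of all genes 7601 were above 0 and 7361 below, with a median of 0.02. With I-PpoI mouse 3 alone the counts of the 55 were 19 and 36 and the median -0.18. With the other scaling genes they were 20 and 35 and -0.22, where all genes had 9568 above 0, 5394 below and a median of 0.27.

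Among 10 other heavy chain genes tested, 1 was above 0 and 9 below, with a median of -0.52. With the other scaling genes 4 were above and 6 below, with a median of -0.22. H2-Q4 had 86.0, 55.6 and 68.3 FPKM in I-PpoI mice, against 124, 130 and 120 FPKM in controls (log2 fold change -0.00 after scaling and -0.14 with I-PpoI mouse 3 alone). H2-Q6, another Qa-region chain, had 73.9, 40.1 and 67.6 FPKM in I-PpoI mice, against 182, 150 and 132 FPKM in controls (-0.53, limma adjusted p = 0.316, and -0.45 with I-PpoI mouse 3 alone), and its scaled groups did not overlap. These chains are near copies of one another, so reads may be split between them and their single values are uncertain. H2-Q7 was at -0.19, and at -0.50 with I-PpoI mouse 3 alone. Fcgrt, the neonatal Fc receptor that pairs with B2m, was at -0.14, and at 0.32 with that mouse alone. The list's 2 genes lower at an unadjusted p, beside 3.34% of all genes, were H2-T10 at -0.81 and H2-M3 at -0.99 (limma adjusted p = 0.316 for both), and at -0.59 and -0.49 with I-PpoI mouse 3 alone.

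Among 7 chaperones and trimming enzymes, 1 was above 0 and 6 below, with a median of -0.53. With the other scaling genes 2 were above and 5 below, with a median of -0.22. Calr, the calreticulin of the loading complex, had 126, 65.1 and 197 FPKM in I-PpoI mice, against 267, 255 and 276 FPKM in controls. Pdia3, the oxidoreductase bound to tapasin, had 39.9, 37.6 and 131 FPKM in I-PpoI mice, against 155, 170 and 171 FPKM in controls. Canx, calnexin, which folds new heavy chains, had 21.5, 18.3 and 62.6 FPKM in I-PpoI mice, against 80.5, 68.4 and 81.2 FPKM in controls. Their scaled fold changes were -0.33, -0.64 and -0.53 over 6 libraries, and 0.29, 0.39 and 0.44 with I-PpoI mouse 3 alone, whose scaled values lay above all controls for the 3 genes. Of the 7 genes that mouse lay above all controls for these 3 and below for 1, beside 23.8% and 23.9% of all genes. Erap1, the aminopeptidase that trims peptides, had 48.1, 22.1 and 9.34 FPKM in I-PpoI mice, against 15.2, 11.2 and 15.5 FPKM in controls. Its fold change of 1.42 (limma adjusted p = 0.316) rests on I-PpoI mice 1 and 2, which lay above all controls as deposited while I-PpoI mouse 3 lay below them, and was 0.15 with I-PpoI mouse 3 alone.

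Psmb10, Pomp and the PA28 activator genes Psme1 and Psme2 gave 1 above 0 and 3 below, with either choice of scaling genes. Psme2 had the lowest fold change of the 55 genes, with 4.95, 2.71 and 11.9 FPKM in I-PpoI mice, against 27.9, 49.7 and 27.4 FPKM in controls. Every I-PpoI library was below every control, also after scaling, at -1.64 (SE 0.48, limma adjusted p = 0.316) and at -0.74 with I-PpoI mouse 3 alone. Psme1, which encodes its partner, was at 0.08, Psmb10, the third immunoproteasome subunit, at -0.36, and Pomp, the assembly chaperone, at -0.65. They were at -0.18, -0.55 and -0.18 with I-PpoI mouse 3 alone.

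All 14 constitutive core genes were below 0 (13 with the other scaling genes), with a median of -0.62 over 6 libraries and -0.27 with I-PpoI mouse 3 alone, and none was past the threshold. Psmb5 had 26.4, 15.9 and 28.6 FPKM in I-PpoI mice, against 44.2, 102 and 43.8 FPKM in controls. Psmb5 was at -0.48, Psmb4 at -0.19, Psma6 at -1.05 and Psmb6 at -0.89, and with I-PpoI mouse 3 alone at -0.29, -0.40, -0.38 and -0.18. Control mouse 2 was the highest control for all 14 of these genes and for the 4 before them.

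Interferon receptors and their signalling genes, which act above the class I promoters, gave 0 above 0 and 12 below, with a median of -0.27. With the other scaling genes 6 were above and 6 below, with a median of 0.004, where all genes were at 0.27. Irf1, an activator of class I promoters, had 19.1, 10.8 and 16.0 FPKM in I-PpoI mice, against 28.4, 37.9 and 28.1 FPKM in controls (-0.20, and -0.22 with I-PpoI mouse 3 alone). Ifngr1 was at -0.65, Jak1 at -0.61 and Ifnar2 at -0.25, and with that mouse alone at -0.19, 0.06 and -0.26. With I-PpoI mouse 3 alone, 5 of the 12 were above 0 and 7 below.

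The factors that bind the class I promoter gave 4 above 0 and 4 below, with a median of 0.07. With the other scaling genes 6 were above and 2 below, with a median of 0.28, where all genes were at 0.27. Rfxank, a subunit of the RFX complex, had 35.05 and 21.1 FPKM in I-PpoI mice 1 and 2, against 3.25 FPKM in I-PpoI mouse 3 and 4.97 to 6.40 FPKM in controls. Its fold change was 1.90 over 6 libraries and -0.08 with I-PpoI mouse 3 alone. Rfxap was at 0.83, and the NF-Y genes Nfyc and Nfya at 0.31 and -0.05, and with I-PpoI mouse 3 alone they were at 0.13, 0.11 and 0.18.

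**Figure D5:**
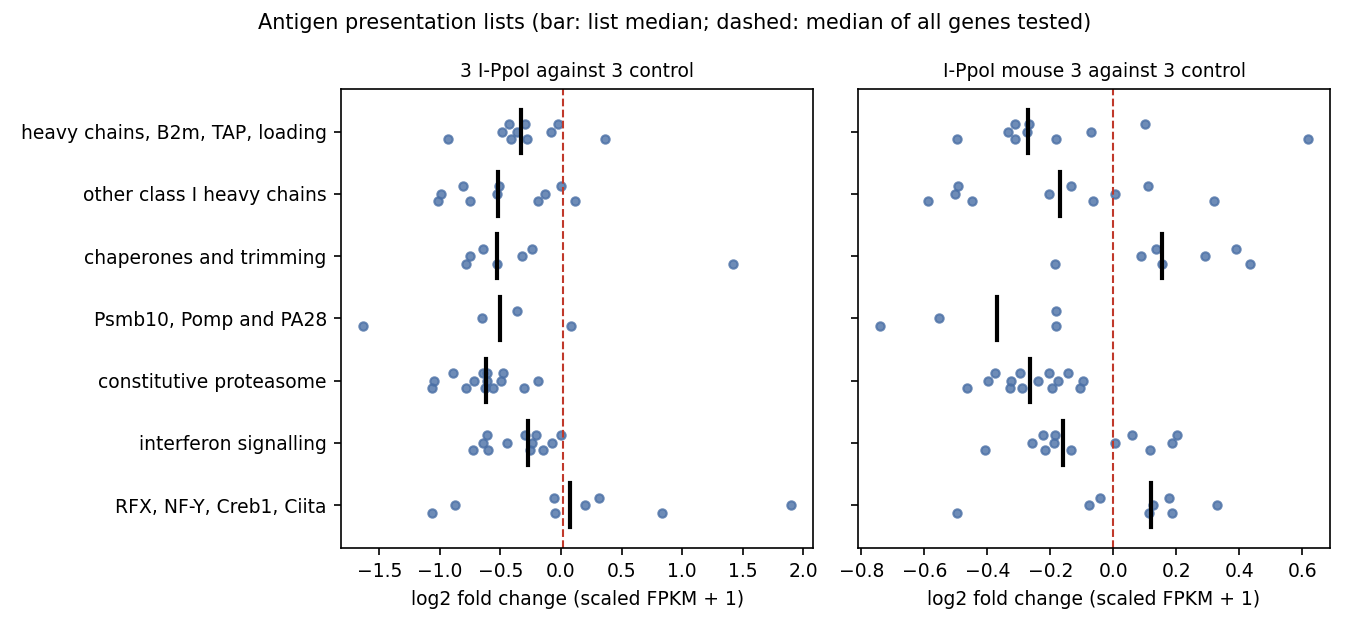
Log2 fold change, I-PpoI over control, of each tested gene of the class I genes (top) and 6 lists of the antigen presentation route, over all 6 libraries (left) and with I-PpoI mouse 3 as the only I-PpoI library (right). Black bars are list medians, -0.33 on the left and -0.27 on the right for the class I genes, and the dashed line is the median of all genes tested.

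The genes whose pattern over the 6 libraries was most like the mean of the class I genes were Rab1a, Mettl9, Prr13, Capzb, Atp9a and Cct8, of 6608 genes that averaged 5 FPKM or more. The measure was the root mean square difference of centred log2(scaled FPKM + 1), which was 0.0362 for Rab1a and 0.0786 for Cct8. Rab1a had 29.0, 20.4 and 32.6 FPKM in I-PpoI mice, against 52.5, 70.9 and 52.0 FPKM in controls. Of the class I genes themselves, Tapbp and H2-T23 lay nearest their mean, at 0.119 and 0.120, and B2m farthest, at 0.560.

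Markers of the sorted cells and of cells that can be carried along were set beside these values. All 12 endothelial markers, led in controls by Eng and Cldn5, had FPKM above 0 in every library, and their summed scaled FPKM was 1549 to 2565 in I-PpoI libraries and 2048 to 2432 in controls. The fold change was below 0 for 10 of the 12 (9 with the other scaling genes), with a median of -0.56, and 2 were lower at an unadjusted limma p, beside 3.34% of all genes. All 12 were below 0 with I-PpoI mouse 3 alone, with a median of -0.30, and after scaling that mouse lay below every control for 9 of 12, beside 23.9% of all genes. Leukocytes are rich in class I and immunoproteasome RNA, and their 18 markers, led in controls by Cd79a and Lyz2, summed to 66.4, 94.7 and 84.3 scaled FPKM in I-PpoI mice, against 26.5, 72.3 and 87.8 in controls. Of these 18, 11 were above 0 in I-PpoI mouse 1, 11 in mouse 2 and 18 in mouse 3, against 17, 18 and 18 in controls, with Cd3d, Nkg7, Klrb1c, Itgam, Flt3 and S100a8 at 0 in both I-PpoI mice 1 and 2. The sum holds markers with opposite signs. Of the 10 that passed the filter, 2 had every scaled I-PpoI library above every control, beside 7.65% of all genes. Csf1r was at 18.3 to 41.0 scaled FPKM against 2.60 to 10.6. Cd68 of macrophages, with a log2 fold change of 1.21, was at 8.06 to 14.5 against 1.08 to 7.96. Lyz2 and Adgre1 overlapped. The B cell markers Cd79b at -1.03 and Ms4a1 at -1.17 were the 2 with every one below, beside 9.76%. After scaling, I-PpoI mouse 3 lay above every control for 6 of the 10 and below for 3, beside 23.8% and 23.9% of all genes. At an unadjusted limma p, 1 of the 10 was higher and 2 were lower, beside 5.83% and 3.34% of all genes.

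The 10 proximal tubule markers, led in controls by Aqp1 and Kap, summed to 333, 884 and 1821 scaled FPKM in I-PpoI mice, against 497, 1068 and 679 in controls, with Slc22a8 at 0 in I-PpoI mouse 1 and all others above 0. The sum was highest in I-PpoI mouse 3, and among controls in control mouse 2. Aqp1 averaged 266 scaled FPKM in I-PpoI libraries against 362 in controls. The fold change was above 0 for 8 of the 10, with a median of 1.14, beside 7601 of all 14962 genes. Slc5a2 alone had every scaled I-PpoI library above every control, at 43.8 to 94.4 against 10.1 to 20.1, beside 7.65% of all genes. With I-PpoI mouse 3 alone the median was 2.22. After scaling that mouse lay above every control for 9 of 10, beside 23.8% of all genes. The 8 mural and fibroblast markers, led in controls by Acta2 and Rgs5, summed to 436 to 637 in I-PpoI libraries and 522 to 639 in controls, and all 8 were above 0 in every library. The part of these cells in the class I values was not tested.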

How the data were processed

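RNA of CD31-sorted kidney endothelial cells from 3 I-PpoI and 3 control mice was read from both ends over 100 cycles, per the labels' protocols. The authors deposited FPKM per gene for 55487 genes. The submitters' processing notes name DESeq2 1.28.13 and the builds mm10 and GRCm38. Which aligner and counter were run, and whether counting used strand, is not given in the sources used here.

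Groups follow the labels, which describe separate mice. The 10 members, the gene lists and the tests were chosen with earlier results of these data known. FPKM times GENCODE M21 exon length gave fragments within 0.05 of a whole number for 98.5 to 98.6% of values under 1000 fragments, and library totals of 834136 to 16954469. FPKM was scaled by the median ratio over 12224 genes above 0 in every library. Limma with a trend was fitted to log2(scaled FPKM + 1) for genes averaging 1 FPKM or more, with no block. It was also run on simulated data drawn from control proportions. Those data held no strand difference between libraries, so that run cannot speak for the libraries that stand apart. The added 1 shrinks the fold changes of low genes. Gene ratios were compared by an exact permutation test over samples.

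The named genes are the 10 members, the 4 of highest mean FPKM in each list, the 2 leading markers of each cell type described and the 6 most like genes. Psmb7 enters by its ratio to Psmb10. H2-T10, H2-M3, Lrp2, Slc5a2, Ddx3y, Xist, the markers at 0, Cd68, Csf1r, Adgre1, Cd79b, Ms4a1 and the opposite-strand models were named after their values were seen. One further marker list is not reported here. A library's own fragments limit its values, and FPKM from few fragments has the larger counting error. Alternatives were FPKM as deposited, other scaling genes, pseudocounts and filters, array weights, limma-voom, a replicate block and leaving out libraries. Scripts ran in python 3.11.15 with scipy 1.17.1, pandas 2.3.3, numpy 2.4.6 and matplotlib 3.10.9, and in R 4.3.3 with limma 3.58.1.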

Additional observations from a re-analysis of the deposited data

How the results depend on the processing

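Of the 14962 genes, 0 passed the limma threshold over all 6 libraries, against 4542 with limma array weights (3289 higher, 1253 lower) and 50 without I-PpoI mice 1 and 2 (all higher). Leaving out 1 library gave 0 to 5665 genes, 0 to 18 of the 55 pathway genes and 0 to 1 of the 10 class I genes. The upper ends come without I-PpoI mouse 3, where the gene was B2m. With array weights 9 pathway genes passed (3 higher, 6 lower), and no class I gene. With scaling factors from 3192 genes that have no opposite-strand neighbour, the log2 fold change turned to 0.23 for H2-K1, 0.28 for H2-D1, 0.0086 for Tap2 and 0.030 for H2-T23. With array weights it turned to 0.016 for H2-K1 and 0.13 for H2-D1. Without I-PpoI mice 1 and 2 it turned to 0.10 for B2m, -0.27 for Psmb9 and 0.62 for Nlrc5, and the log2 ratio differences turned to -0.12 for Psmb9 to Psmb6, -0.22 for Psmb10 to Psmb7, 0.085 for H2-K1 to H2-D1 and 0.43 for Tap1 to Tap2. As deposited Psmb9 was at -0.41, and with limma-voom Nlrc5 was at 0.40. None of these single-gene values passed the threshold, and the cause of the turns was not tested.

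Leaving out 1 library gave log2 fold changes of -0.27 to 0.093 for H2-K1, -0.15 to 0.084 for H2-D1 and -1.46 to -0.66 for B2m. It gave ratio differences of -0.27 to 0.22 for Psmb8 to Psmb5, 0.76 to 2.06 for Psmb9 to Psmb6, -0.13 to 0.85 for Psmb10 to Psmb7, -0.13 to 0.074 for H2-K1 to H2-D1 and -0.49 to 0.11 for Tap1 to Tap2. No class I gene passed with a pseudocount of 0.1, with no filter or as deposited. Each gene's group mean was subtracted from its log2 scaled values, and the deviations left were correlated over genes. Those of same-numbered mice correlated at 0.14, 0.06 and 0.04, and each mouse correlated best with its own number in the other group. The labels describe separate mice, so the numbers were not taken as pairs, and these correlations cannot settle whether they are. With the replicate number as a block, 0 genes, 0 class I genes and 0 pathway genes passed. I-PpoI mice 1 and 2 give few fragments for Tap1, Psmb8, Psmb9 and Nlrc5 (3 to 73), and I-PpoI mouse 2 gives 56 for Tap2. The ratio partners Psmb5, Psmb6 and Psmb7 have 10 to 47 in these 2 libraries. Depth therefore limits these genes and the proteasome ratios strongly.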

Other observations

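The balance of light and heavy chain RNA was looked at after the values were seen. FPKM of B2m over the sum of H2-K1 and H2-D1 was 0.567, 0.567 and 2.04 in I-PpoI mice, against 1.41, 1.76 and 1.68 in controls. I-PpoI mice 1 and 2 lay below all controls and I-PpoI mouse 3 above them. The mean log2 ratio differed by -0.89 (exact two-sided permutation p = 0.4, n = 3 each), and I-PpoI mouse 3 minus the control mean was 0.34.

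Control mouse 2 was the highest control for most proteasome and class I genes, as seen after the values were known. After scaling it was the highest control for all 14 constitutive proteasome genes, all 4 genes of the immunoproteasome and activator list and 9 of the 10 class I genes, against 0 of the 7 chaperone and trimming genes. It was so for 5 of 10 other heavy chain genes, 5 of 12 interferon signalling genes and 3 of 8 promoter factor genes. Of all genes tested it was the highest control for 40.2%. These counts give rank only, and the size of its lead differed by gene. Psmb8 had 44.9 FPKM in control mouse 2, against 21.2 and 25.4 FPKM in control mice 1 and 3. Tap1 had 14.2 FPKM there, against 12.5 and 12.7 FPKM. Nlrc5 was lowest there, at 2.18 FPKM against 3.71 and 4.07 FPKM.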
